A study of Mus musculus with 12 samples.

Results

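The 35 genes described here encode the core machinery of autophagy, the receptors of mitophagy and proteins of the lysosomal membrane, and all 35 were found by gene symbol among the 55421 genes of a raw count table from mouse heart ventricles. They were chosen by gene name, with earlier results of these data known. The table held 12 RNA sequencing libraries from wild-type mice in 3 groups of 4. The Ang II_FI group received angiotensin II (Ang II), a hormone that constricts vessels and makes the heart grow, from an osmotic minipump implanted under the skin, together with Forsythoside I (FI) injected into the peritoneum on alternate days at 50 mg/kg from the day before pump implantation until day 14. The Ang II group received Ang II with vehicle, and the Con group received saline with vehicle. No group received FI without Ang II. Each library held 68874852 to 80624227 counts, and the labels give strain, sex and age for none of them, nor whether each library came from 1 mouse.

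Autophagy delivers cytoplasmic material to the lysosome inside a double membrane. The ULK1 kinase complex starts the process, a lipid kinase complex with Beclin 1 nucleates the membrane, and a conjugation machinery attaches proteins of the LC3 and GABARAP families to it, where they bind receptors that carry cargo. Mitophagy applies the same membrane to mitochondria, of which heart muscle cells hold many, and the transcription factors TFEB and TFE3 activate autophagy and lysosome genes. Transcript levels do not measure the flow of material through this pathway.

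One library stood apart from the rest. Ang II_FI 3 held 25804 CPM (counts scaled to the library size) on 20 hepatocyte markers, against 63.2 CPM in Ang II 3 and 2.18 to 8.97 CPM in the other libraries, so for Ang II_FI the log2 fold changes of genes given by library, and the counts of genes with an unadjusted p under 0.05 or without overlap, are also given without it. Mitochondrially encoded genes took 29.1% of its counts, the lowest share among the libraries, which ranged up to 38.8%. The 12 cardiomyocyte markers summed to 39239 to 56884 CPM in the 12 libraries, so the labelled tissue held its defining transcripts throughout. Ang II_FI 3 was the highest of the 4 Ang II_FI libraries for 14 of the 35 genes and the lowest for 9. In bulk tissue, fewer cells of a type and less RNA per cell cannot be told apart.

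All 35 genes were detected in all 12 libraries, with 392 to 35660 counts each, and all passed the filter on low counts. Together they held 2693 to 3267 CPM per library. Levels are compared between genes as CPM per kilobase of exon, the merged length of all annotated exons of a gene. The order depends on that length. Before division by it, Map1lc3a averaged 288 CPM over 12 libraries, below Lamp1 at 428 CPM and Pink1 at 412 CPM. Map1lc3a, a member of the LC3 family that is conjugated to the membrane, was the highest at 243.7 ± 22.9 CPM per kilobase (mean ± SD over 12 libraries). It lay above the second gene, Lamp1, in 12 of 12 libraries. Lamp1, a glycoprotein that lines the lysosomal membrane, averaged 159.8 ± 11.4 CPM per kilobase, close to Pink1, the kinase that marks damaged mitochondria, at 154.1 ± 16.1 CPM per kilobase. Lamp1 exceeded Pink1 in 9 of 12 libraries, a gap within their spread. Gabarap followed at 81.8 ± 8.93, and Bnip3 at 70.7 ± 10.7 and Sqstm1 at 67.1 ± 10.1 CPM per kilobase did not differ beyond their spread, with Bnip3 above in 8 of 12 libraries.

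Within the other roles, the highest level per kilobase belonged to Ulk2 among the ULK1 complex genes (10.9 CPM per kilobase), to Wipi1 among the nucleation and membrane supply genes (14.8), to Atg3 in the conjugation machinery (9.65) and to Tfeb of the transcription factors (3.08). Atg3 and Atg10, the next gene at 9.60 CPM per kilobase, did not differ beyond their spread. The lowest of the 35 was Atg2b, a lipid transfer protein, at 0.612 CPM per kilobase. The order of the genes changed little between the groups: 11 of 35 held the same rank in all 3 groups, and the largest move was 4 ranks, by Atg3.

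**Figure D1:**
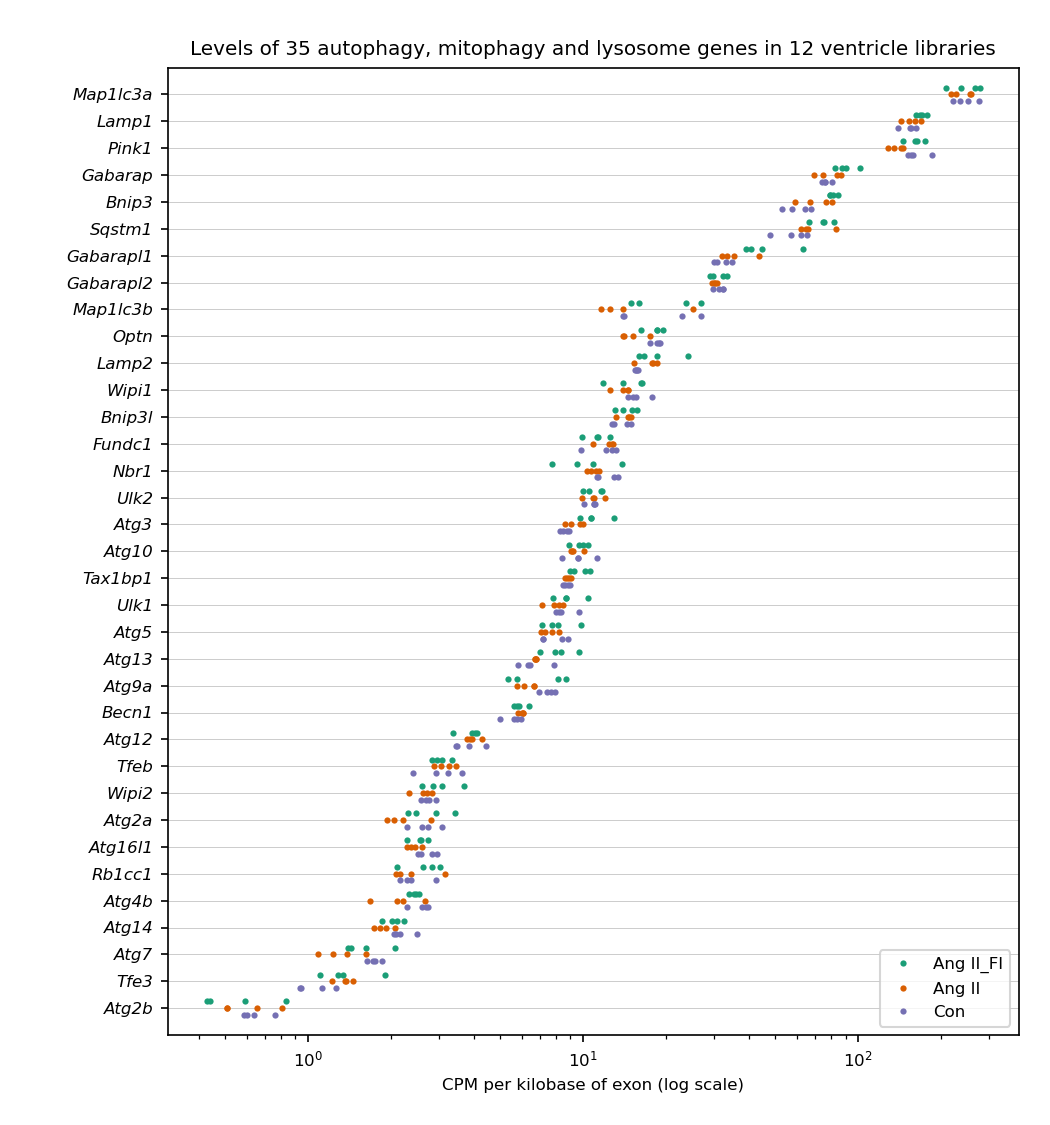
Levels of the 35 genes in 12 libraries, as CPM per kilobase of exon on a log scale, 1 point per library, with Ang II_FI, Ang II and Con from top to bottom within each gene. The genes run from Map1lc3a at 243.7 to Atg2b at 0.612 CPM per kilobase, and for most genes the 3 groups lie over each other.

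The comparisons were Ang II against Con for the response to Ang II, Ang II_FI against Ang II for the effect of FI during Ang II treatment, and Ang II_FI against Con. They share libraries and are not independent of each other. With edgeR's quasi-likelihood test and a threshold of 0.05 on the p adjusted over 17376 genes (Benjamini-Hochberg), 0 of the 35 genes passed in each of the 3 comparisons. Among all genes the same test called 2.23% in Ang II against Con (273 higher and 115 lower), 0% in Ang II_FI against Ang II, and 0.978% in Ang II_FI against Con (125 higher and 45 lower). DESeq2 called 3 of the 35 genes, all higher in Ang II_FI against Con, where it called 2.8% of all genes higher, and 0 in the other comparisons. DESeq2 was run with all 12 libraries only, so its calls were not repeated without Ang II_FI 3. limma-voom called 0 in each comparison.

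The 35 genes were measured closely enough to bound most changes. The 95% interval of the fold change lay within 1.5-fold either way for 32 of 35 genes in Ang II against Con, for 30 in Ang II_FI against Ang II and for 29 in Ang II_FI against Con. It lay within 2-fold either way for 35, 34 and 35 genes in the same order, the exception being Map1lc3b, whose interval for Ang II_FI against Ang II reached 2.01-fold. The median coefficient of variation within a group was 9.50% in Ang II_FI, 7.51% in Ang II and 8.82% in Con over the 35 genes, against 11.8%, 8.98% and 10.4% over the 8283 tested genes at least as abundant as the least abundant of them.

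Before adjustment, 4 of the 35 genes had p under 0.05 in Ang II against Con, 3 of them lower and 1 higher, where 16.8% of all tested genes did. There were 7 in Ang II_FI against Ang II, all higher, where 9.95% of all genes had such a p and 5.46% were higher with it. There were 9 in Ang II_FI against Con, all higher, where 17.3% of all genes had such a p and 10.4% were higher with it. Without Ang II_FI 3 the counts were 4 of 35 in Ang II_FI against Ang II, all higher, against 7.93% of all genes, 3.37% being higher. They were 8 of 35 in Ang II_FI against Con, 6 higher and 2 lower, against 15.7% of all genes, 8.24% higher and 7.43% lower. All libraries share 1 estimate of the spread, so Ang II_FI 3 also enters the p-values of Ang II against Con. Without it, 4 of 35 again had p under 0.05 there, against 18.8% of all genes, and their smallest edgeR adjusted p was 0.0983. Scaling by library totals alone, in place of TMM factors, left 1 of 35 in Ang II_FI against Ang II, against 10.1% of all genes.

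The median log2 fold change of the 35 genes was -0.04 in Ang II against Con, where 17 lay above 0 and the median of all tested genes was 0.0047. The median was 0.11 in Ang II_FI against Ang II and 29 of 35 lay above 0, where all tested genes had a median of 0.018 and 53.1% lay above 0. Without Ang II_FI 3 the median was 0.085 with 28 of 35 above 0, where all tested genes had a median of -0.0027 and 49.5% lay above 0. With library totals alone 22 of 35 lay above 0 and the median was 0.055, where all genes had a median of -0.05 and 41.6% lay above 0. For Ang II_FI against Con the median was 0.056 and 22 of 35 lay above 0, where all genes had a median of 0.024 and 53.4% lay above 0. Leaving out Ang II_FI 3 gave a median of 0.039 with 22 of 35 above 0, where all genes had a median of -0.0081 and 48.9% lay above 0.

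**Figure D2:**
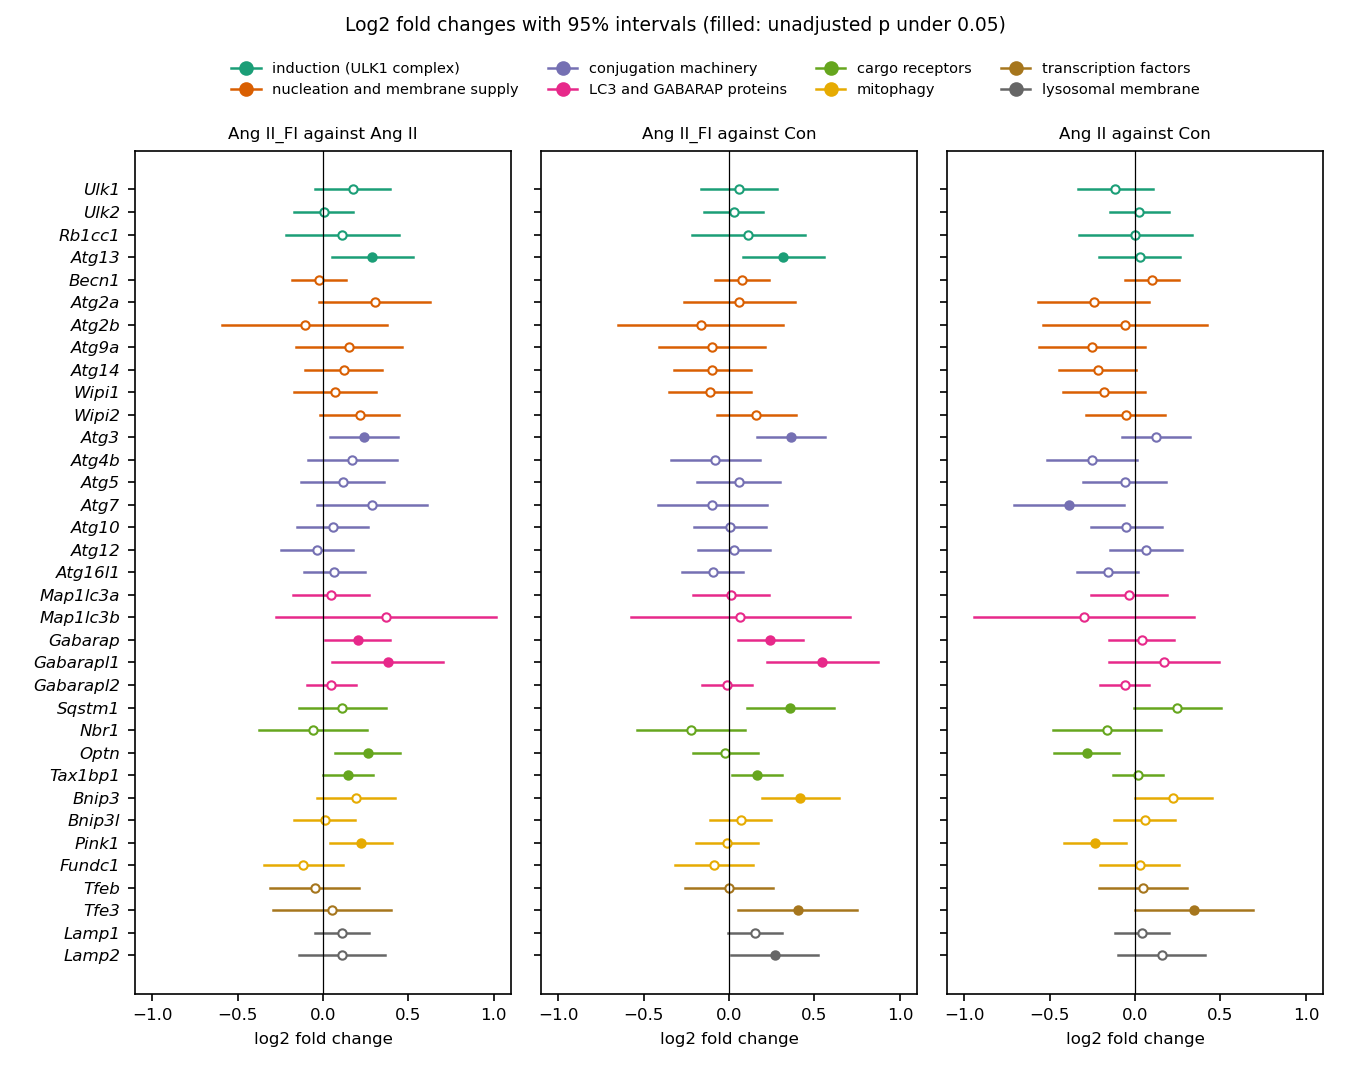
Log2 fold changes of the 35 genes with 95% intervals from edgeR's quasi-likelihood fit, grouped by role, in 1 panel for each comparison; filled points have an unadjusted p under 0.05. No gene passed the adjusted threshold, 29 of 35 points lie above 0 in Ang II_FI against Ang II, and the widest interval is that of Map1lc3b.

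Among the 4 genes of the ULK1 complex, Atg13, the regulatory subunit that links the kinase to its partners, differed most. It had 30.5, 42.2, 36.3 and 34.5 CPM in Ang II_FI 1 to 4, against 29.3, 29.3, 29.5 and 29.4 CPM in Ang II 1 to 4 and 27.5, 25.4, 28.1 and 34.2 CPM in Con 1 to 4. Every Ang II_FI library lay above every Ang II library, and groups did not overlap for 5.4% of tested genes in this comparison, while Ang II_FI and Con overlapped. Atg13 had a log2 fold change of 0.29 ± 0.11 (SE) for Ang II_FI against Ang II and 0.32 ± 0.11 for Ang II_FI against Con (edgeR adjusted p = 0.439 and 0.167), and of 0.28 and 0.31 without Ang II_FI 3. The 4 Ang II libraries of Atg13 varied by 0.286% (coefficient of variation), the smallest spread of any of the 35 genes in any group. With 2006 to 2400 counts each, counting error alone gives a wider spread than this, and Ang II_FI 1 lay close above, at 30.5 CPM. Ulk1, Ulk2 and Rb1cc1 had log2 fold changes between -0.12 and 0.17 in the 3 comparisons, with and without Ang II_FI 3, none with p under 0.05 in the fit of all libraries.

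None of the 7 genes of nucleation and membrane supply had p under 0.05 in any comparison with all libraries in the fit. Becn1, which encodes Beclin 1, had 41.3, 40.5, 39.5 and 45.1 CPM in Ang II_FI, 41.1, 42.5, 42.6 and 42.8 CPM in Ang II, and 39.7, 40.7, 35.2 and 42.1 CPM in Con. The groups overlapped, with log2 fold changes of 0.10 ± 0.07 (SE) for Ang II against Con, -0.02 ± 0.07 for Ang II_FI against Ang II and 0.08 ± 0.07 for Ang II_FI against Con (edgeR adjusted p = 0.567, 0.947 and 0.648). Leaving out Ang II_FI 3 gave Becn1 -0.0003 against Ang II and 0.10 against Con. Atg9a, a membrane protein of the vesicles that supply the growing membrane, averaged 36.1 ± 2.56 CPM in Ang II and 43.0 ± 2.31 CPM in Con (SD, n = 4 each). These groups did not overlap, with a log2 fold change of -0.25 ± 0.14 (edgeR adjusted p = 0.421). Atg2b had a log2 fold change of -0.17 ± 0.22 (SE) for Ang II_FI against Con, and of -0.41 without Ang II_FI 3, in which its level was 1.72 times the mean of the other 3 Ang II_FI libraries.

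In the conjugation machinery, Atg3 and Atg7 act in sequence, Atg7 activating the small proteins and Atg3 passing the LC3 family to its lipid. Atg3 (chromosome 16, 45158785 to 45188538, plus strand) had 33.8, 30.7, 41.0 and 33.7 CPM in Ang II_FI, 27.1, 28.5, 31.4 and 30.8 CPM in Ang II, and 28.04, 26.0, 27.5 and 26.6 CPM in Con. All Ang II_FI libraries lay above all Con libraries, the highest being Ang II_FI 3, and Ang II_FI overlapped with Ang II. The log2 fold change of Atg3 was 0.36 ± 0.09 (SE) for Ang II_FI against Con (edgeR adjusted p = 0.0824, DESeq2 adjusted p = 0.022) and 0.24 ± 0.09 for Ang II_FI against Ang II (edgeR adjusted p = 0.441). Both were smaller without Ang II_FI 3, at 0.27 and 0.15.

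Atg7 had 9.95, 11.3, 14.4 and 9.74 CPM in Ang II_FI, against 9.68, 8.60, 7.61 and 11.3 CPM in Ang II and 12.3, 12.0, 11.4 and 12.99 CPM in Con. All Ang II libraries lay below all Con libraries, and the log2 fold change was -0.39 ± 0.15 (SE, edgeR adjusted p = 0.203). Without Ang II_FI 3 in the fit it was -0.39 as well (edgeR adjusted p = 0.0983). For Ang II_FI the log2 fold change of Atg7 was 0.29 against Ang II and -0.10 against Con, and 0.15 and -0.24 when Ang II_FI 3, its highest library, was left out. Atg4b, Atg5, Atg10, Atg12 and Atg16l1, which process or conjugate the same proteins, had no p under 0.05 in any of the 3 comparisons.

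Among the 5 LC3 and GABARAP genes, Gabarapl1 (chromosome 6, 129533160 to 129542346, plus strand) had the largest log2 fold change in Ang II_FI against Con. It had 82.3, 78.7, 127 and 90.2 CPM in Ang II_FI, 64.3, 67.4, 71.2 and 88.1 CPM in Ang II, and 66.7, 60.1, 61.6 and 70.3 CPM in Con. All Ang II_FI libraries lay above all Con libraries, and Ang II_FI 3 was the highest. Gabarapl1 had a log2 fold change of 0.55 ± 0.15 (SE) for Ang II_FI against Con (edgeR adjusted p = 0.102, DESeq2 adjusted p = 0.021) and 0.38 ± 0.15 for Ang II_FI against Ang II (edgeR adjusted p = 0.447). These were 0.37 and 0.20 without Ang II_FI 3, the value against Ang II moving by more than 1.5 times.

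Gabarap had 167, 161, 151 and 188 CPM in Ang II_FI, 128, 137, 154 and 160 CPM in Ang II, and 136, 139, 140 and 148 CPM in Con. All Ang II_FI libraries lay above all Con libraries, and Ang II_FI 3 was the lowest of its group. For Gabarap the log2 fold change was 0.24 ± 0.09 (SE) for Ang II_FI against Con and 0.20 ± 0.09 for Ang II_FI against Ang II (edgeR adjusted p = 0.188 and 0.483), and without Ang II_FI 3 it was 0.28 and 0.24. Map1lc3a and Gabarapl2 stayed between -0.06 and 0.05 on the log2 scale in the 3 comparisons, and reached 0.12 and 0.080 for Ang II_FI against Ang II without Ang II_FI 3.

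Map1lc3b (chromosome 8, 121590361 to 121598760, plus strand), the gene of LC3B, the usual protein marker of autophagosomes, varied more within groups than any other of the 35 genes in Ang II and in Con. It had 179, 112, 120 and 202 CPM in Ang II_FI, 94.3, 87.4, 105 and 188 CPM in Ang II, and 172, 106, 105 and 202 CPM in Con. Each group held libraries between 87.4 and 120 CPM and others between 172 and 202 CPM, and the groups overlapped. The coefficient of variation reached 39.5% in Ang II and 33.3% in Con. The log2 fold change was -0.30 ± 0.30 (SE) for Ang II against Con, 0.37 ± 0.30 for Ang II_FI against Ang II and 0.07 ± 0.30 for Ang II_FI against Con (edgeR adjusted p = 0.694, 0.715 and 0.942). With Ang II_FI 3 left out, it was 0.46 against Ang II and 0.16 against Con. Gm6055, a processed pseudogene 99.7% identical to Map1lc3b over 378 bases, held 999 to 1255 counts in every library beside 6211 to 15364 counts of Map1lc3b, so reads may be split between them.

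Of the 4 cargo receptors, Optn (chromosome 2, 5020642 to 5064051, minus strand), the gene of optineurin, which links ubiquitin-marked mitochondria to LC3, had 60.9, 73.3, 69.8 and 69.96 CPM in Ang II_FI, 53.1, 52.5, 65.9 and 57.0 CPM in Ang II, and 70.9, 66.0, 69.98 and 71.3 CPM in Con. All Ang II libraries lay below all Con libraries, while Ang II 3 overlapped with Ang II_FI. Optn had a log2 fold change of -0.28 ± 0.09 (SE) for Ang II against Con (edgeR adjusted p = 0.115) and 0.26 ± 0.09 for Ang II_FI against Ang II (edgeR adjusted p = 0.411). Both values use the same 4 Ang II libraries. Against Con, Ang II_FI had a log2 fold change of -0.02, and without Ang II_FI 3 the values were 0.25 against Ang II and -0.04 against Con.

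Sqstm1, the gene of p62, the receptor that gathers ubiquitin-marked proteins, had 223, 252, 274 and 249 CPM in Ang II_FI, 208, 218, 220 and 278 CPM in Ang II, and 191, 160, 209 and 219 CPM in Con. All Ang II_FI libraries lay above all Con libraries, and Ang II overlapped with both. Sqstm1 had a log2 fold change of 0.36 ± 0.12 (SE) for Ang II_FI against Con, 0.25 ± 0.12 for Ang II against Con and 0.11 ± 0.12 for Ang II_FI against Ang II (edgeR adjusted p = 0.149, 0.318 and 0.791). Leaving out Ang II_FI 3, its highest Ang II_FI library, gave 0.31 against Con and 0.061 against Ang II. Tax1bp1, another ubiquitin-binding receptor, had 102, 92.7, 106 and 89.9 CPM in Ang II_FI, 86.2, 90.0, 87.7 and 88.5 CPM in Ang II, and 87.8, 84.3, 85.8 and 89.9 CPM in Con. Tax1bp1 had a log2 fold change of 0.17 ± 0.07 (SE) for Ang II_FI against Con and 0.15 ± 0.07 for Ang II_FI against Ang II (edgeR adjusted p = 0.229 and 0.498), and 0.12 and 0.10 without Ang II_FI 3.

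Nbr1, the receptor related to p62, had 65.1, 52.9, 95.4 and 75.0 CPM in Ang II_FI, 73.6, 76.4, 71.1 and 78.7 CPM in Ang II, and 88.8, 77.5, 78.2 and 91.9 CPM in Con. Its log2 fold change for Ang II_FI against Con was -0.22 ± 0.15 (SE, edgeR adjusted p = 0.474), and -0.39 without Ang II_FI 3 (edgeR adjusted p = 0.114). Against Ang II it was -0.06, and -0.22 without that library.

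Of the mitophagy genes, Bnip3 (chromosome 7, 138890836 to 138909519, minus strand), a mitochondrial outer membrane receptor that oxygen shortage induces, had the smallest p of the 35 genes in Ang II_FI against Con. It had 179, 191, 179 and 184 CPM in Ang II_FI, 133, 152, 173 and 182 CPM in Ang II, and 146, 120, 130 and 153 CPM in Con. All Ang II_FI libraries lay above all Con libraries, and Ang II overlapped with both. The log2 fold change was 0.42 ± 0.10 (SE) for Ang II_FI against Con (edgeR adjusted p = 0.08, DESeq2 adjusted p = 0.016), and it was 0.42 without Ang II_FI 3 as well. It was 0.22 ± 0.10 for Ang II against Con and 0.19 ± 0.10 for Ang II_FI against Ang II (edgeR adjusted p = 0.305 and 0.561), the second being 0.20 without Ang II_FI 3.

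Pink1 (chromosome 4, 138313409 to 138326307, minus strand) had 429, 467, 389 and 438 CPM in Ang II_FI, 361, 344, 391 and 382 CPM in Ang II, and 405, 424, 417 and 495 CPM in Con. All Ang II libraries lay below all Con libraries, and Ang II 3 lay just above the lowest Ang II_FI library, Ang II_FI 3. The log2 fold change was -0.24 ± 0.08 (SE) for Ang II against Con, 0.22 ± 0.08 for Ang II_FI against Ang II and -0.01 ± 0.08 for Ang II_FI against Con (edgeR adjusted p = 0.166, 0.433 and 0.961). The value for Ang II_FI against Ang II was 0.27 without Ang II_FI 3, and that against Con was 0.028. Bnip3l and Fundc1, receptors on the mitochondrial outer membrane as well, had log2 fold changes between -0.12 and 0.08, with and without Ang II_FI 3.

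The groups of Ang II and Con did not overlap for 4 of the 35 genes, Optn, Pink1, Atg7 and Atg9a, all lower in Ang II, where 13.5% of tested genes showed no overlap and 6.11% were lower without overlap. Ang II_FI and Con did not overlap for 7 genes, all higher in Ang II_FI, where 9.31% of tested genes showed no overlap and 5.01% were higher without overlap. These 7 were Gabarap, Gabarapl1, Sqstm1, Atg3, Bnip3, Lamp1 and Lamp2. When Ang II_FI 3 was left out, the same 7 were higher without overlap and 2, Atg7 and Nbr1, were lower, where 14.9% of tested genes showed no overlap. Ang II_FI then lay above Ang II without overlap for 3 genes, Atg13, Gabarap and Pink1, where 9.66% of tested genes showed no overlap, against 1 gene, Atg13, with all libraries.

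**Figure D3:**
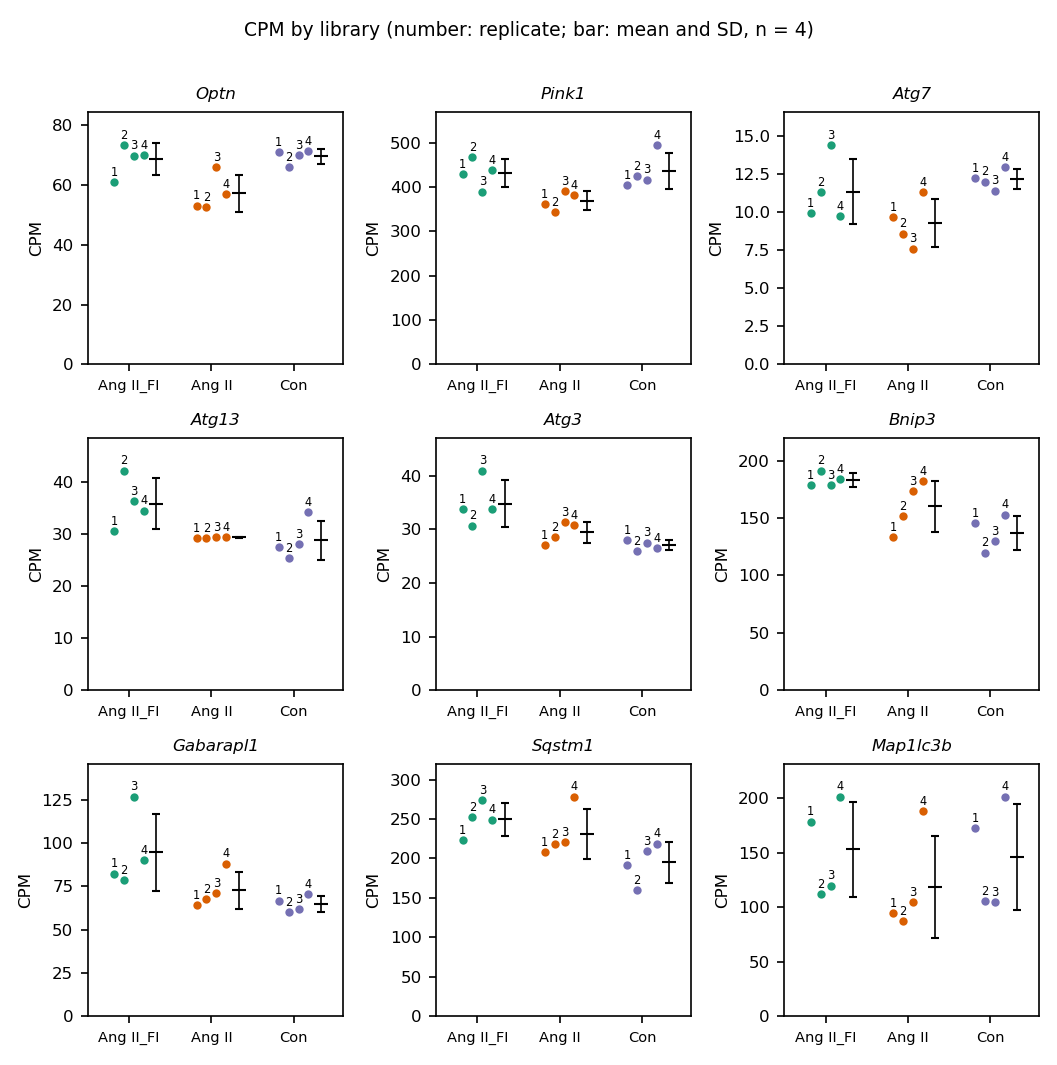
CPM of 9 of the 35 genes in each library, with the replicate number beside its point and the mean and SD of 4 libraries as a bar, for Ang II_FI, Ang II and Con from left to right. The Ang II libraries of Optn, Pink1 and Atg7 lie below the Con libraries, the Ang II_FI libraries of Atg3, Bnip3, Gabarapl1 and Sqstm1 lie above the Con libraries, and Map1lc3b spans 87.4 to 202 CPM with wide overlap.

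Of the 2 transcription factors, Tfeb had 16.0, 18.9, 16.6 and 17.5 CPM in Ang II_FI, 16.2, 18.5, 17.2 and 19.5 CPM in Ang II, and 13.7, 16.6, 18.3 and 20.5 CPM in Con. The groups overlapped, and the log2 fold change was 0.05 ± 0.12 (SE) for Ang II against Con, -0.05 ± 0.12 for Ang II_FI against Ang II and -0.0016 ± 0.12 for Ang II_FI against Con (edgeR adjusted p = 0.902, 0.927 and 0.997). With Ang II_FI 3 left out, Tfeb had -0.03 against Ang II and 0.01 against Con. Tfe3 had 11.9, 12.5, 17.6 and 10.2 CPM in Ang II_FI, 12.7, 11.4, 12.6 and 13.5 CPM in Ang II, and 10.4, 11.7, 8.77 and 8.65 CPM in Con. Its log2 fold change was 0.35 ± 0.16 (SE) for Ang II against Con and 0.40 ± 0.16 for Ang II_FI against Con (edgeR adjusted p = 0.297 and 0.221). Without Ang II_FI 3 in the fit, the value for Ang II against Con was 0.34 (edgeR adjusted p = 0.13). Ang II_FI 3 held the highest value of Tfe3, and without it the log2 fold change for Ang II_FI against Con was 0.22. Against Ang II it was 0.06, and -0.13 without that library.

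Of the lysosomal membrane genes, Lamp1 had 434, 477, 448 and 458 CPM in Ang II_FI, 384, 411, 454 and 430 CPM in Ang II, and 416, 372, 412 and 433 CPM in Con. Its log2 fold change was 0.15 ± 0.07 (SE) for Ang II_FI against Con, 0.11 ± 0.07 for Ang II_FI against Ang II and 0.04 ± 0.07 for Ang II against Con (edgeR adjusted p = 0.304, 0.626 and 0.86). The Lamp1 values against Con and Ang II were 0.15 and 0.12 without Ang II_FI 3. Lamp2, which is needed for the fusion of autophagosomes with lysosomes, had 177, 159, 230 and 153 CPM in Ang II_FI, 146, 171, 178 and 171 CPM in Ang II, and 149, 151, 147 and 150 CPM in Con. The Con libraries of Lamp2 lay closest together. Its log2 fold change was 0.27 ± 0.12 (SE) for Ang II_FI against Con, 0.16 ± 0.12 for Ang II against Con and 0.11 ± 0.12 for Ang II_FI against Ang II (edgeR adjusted p = 0.264, 0.573 and 0.788). Without Ang II_FI 3, the highest library, the values against Con and Ang II were 0.12 and -0.03.

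TFEB and TFE3 bind the E-box CACGTG and the CLEAR element, a longer palindrome with GT before and AC after these letters. Both were searched in 34 RefSeq promoters (GRCm38.p6) of 29 of the 35 genes, each 250 bases before to 50 bases after a transcription start; each motif is its own reverse complement, so both strands are covered. The E-box stood in 6 of the 34 promoters, which belong to Atg3, Atg5, Atg7, Atg14, Bnip3 and Lamp1, and in 7.15% of all 32851 promoters in the table. The longer motif stood in none of the 34, and in 0.326% of all promoters. The 3 genes that DESeq2 called in Ang II_FI against Con, with Ang II_FI 3 in the fit, are shown from 170 to 51 bases upstream of the start. They read 5′ to 3′ on the strand of the gene, with E-boxes in capitals.
Atg3 (chr16:45158659-45158778, plus strand): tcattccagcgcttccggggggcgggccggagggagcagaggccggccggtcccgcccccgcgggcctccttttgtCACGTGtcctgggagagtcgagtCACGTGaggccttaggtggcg
Bnip3 (chr7:138909557-138909676, minus strand): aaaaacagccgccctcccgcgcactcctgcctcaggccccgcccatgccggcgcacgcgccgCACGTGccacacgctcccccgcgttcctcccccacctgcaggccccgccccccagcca
Gabarapl1 (chr6:129533022-129533141, plus strand): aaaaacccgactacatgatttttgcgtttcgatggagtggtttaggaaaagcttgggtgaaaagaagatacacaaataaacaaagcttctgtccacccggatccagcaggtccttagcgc
Atg3 held 2 E-boxes, starting 94 and 71 bases upstream, the second within TCACGTGA, an extension found in 0.974% of all promoters. Bnip3 held 1 E-box, 108 bases upstream, and Gabarapl1 held none in its window. The match is of letters only, and binding was not measured.

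Of the other genes of the pathway, 43 lysosomal hydrolases and their activators were tested, and 2 rose and 0 fell in Ang II against Con, where 2.23% of all genes passed. Before adjustment, 8 of the 43 were higher and 7 lower with p under 0.05, where 9.37% and 7.41% of all genes were. Ctss, the protease cathepsin S, had 26.0, 23.2, 26.2 and 37.1 CPM in Ang II against 18.2, 18.9, 18.7 and 15.0 CPM in Con, and its log2 fold change was 0.67 ± 0.14 (SE, edgeR adjusted p = 0.0296). Gusb, the sugar-cleaving enzyme beta-glucuronidase, had 20.9, 18.8, 18.4 and 19.1 CPM in Ang II against 15.7, 13.4, 16.2 and 12.8 CPM in Con, a log2 fold change of 0.42 ± 0.10 (edgeR adjusted p = 0.0472). For both genes all Ang II libraries lay above all Con libraries. Of the 43, 1 rose and 0 fell in Ang II_FI against Con, where 0.978% of all genes passed. Ctsz, the carboxypeptidase cathepsin Z, had 28.2, 24.6, 46.2 and 25.6 CPM in Ang II_FI against 18.8, 17.6, 19.0 and 15.2 CPM in Con, a log2 fold change of 0.82 ± 0.17 (edgeR adjusted p = 0.0498). Without Ang II_FI 3, its highest library, the value was 0.56 (edgeR adjusted p = 0.017). In Ang II 1 to 4, Ctsz had 27.1, 27.95, 26.69 and 27.56 CPM, all above Con as well.

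Markers of macrophages, cells rich in lysosomes, were higher in the same comparisons as these 3 hydrolases. The 15 macrophage markers, all detected in every group, summed to 509 to 661 CPM in Ang II_FI, 581 to 681 CPM in Ang II and 367 to 480 CPM in Con. Of the 15, 5 rose and 0 fell in Ang II against Con, where 2.23% of all genes passed, and 3 rose and 0 fell in Ang II_FI against Con, where 0.978% passed (edgeR adjusted p under 0.05). The 3 libraries of Ang II_FI other than Ang II_FI 3 held 591 to 661 CPM, and without it 3 of the 15 also rose against Con. The log2 difference of the sums was 0.53 for Ang II against Con and 0.47 for Ang II_FI against Con (exact two-sided permutation p = 0.0286 for each, the smallest that 4 against 4 allows, and 0.114 after Benjamini-Hochberg adjustment over 24 tests). Such calls were not particular to macrophages. Of 10 fibroblast markers, 5 rose and 0 fell in Ang II against Con, and 2 rose and 0 fell in Ang II_FI against Con. Of 6 tested genes of the skeletal muscle list, 2 rose and 0 fell in each of these comparisons. That list holds Acta1 and Ckm, which heart muscle also expresses, and its myosin gene Myh2 had no count in any library. It therefore does not identify skeletal muscle in these ventricles. The part of macrophages or of these other cell types in the levels of the hydrolases was not tested.

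Among 27 regulators of the mTORC1 and AMPK kinases, 1 fell and 0 rose in Ang II against Con, where 2.23% of all genes passed. Before adjustment, 4 of the 27 were lower and 0 higher with p under 0.05, where 7.41% of all genes were lower with such a p. Prkab1, a regulatory subunit of AMPK, had 16.7, 15.9, 16.2 and 15.1 CPM in Ang II against 19.1, 20.02, 24.0 and 27.9 CPM in Con, and its log2 fold change was -0.51 ± 0.12 (SE, edgeR adjusted p = 0.0493). Among 18 other mitophagy genes and receptors, 1 fell and 0 rose in the same comparison, against the same 2.23%. Before adjustment, 6 of the 18 were lower and 0 higher with p under 0.05, against the same 7.41%. Nipsnap2, a mitochondrial protein that recruits autophagy receptors to damaged mitochondria, had 426, 410, 437 and 416 CPM in Ang II against 548, 537, 528 and 637 CPM in Con, a log2 fold change of -0.41 ± 0.08 (edgeR adjusted p = 0.0289). For both genes the groups did not overlap. These 5 calls lay near the threshold: in 12 fits that each lacked another library, the call was lost in 11 for Prkab1, 10 for Gusb, 10 for Ctsz, 7 for Nipsnap2 and 6 for Ctss. The fit without Ang II_FI 3 called more genes in all, 3.86% in Ang II against Con and 1.24% in Ang II_FI against Con. In Ang II against Con it then called 4 hydrolases higher (Ctss, Gusb, Ctsk and Ctsz) and 3 kinase regulators lower (Prkab1, Prkab2 and Prkag1). Of the 18 other mitophagy genes and receptors, it called 2 lower in that comparison (Nipsnap2 and Calcoco1). In Ang II_FI against Con it called 2 hydrolases higher, Ctsk and Ctsz. Ctsk, Prkag1 and Calcoco1 are named here because of this fit, after their values were seen.

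**Figure D4:**
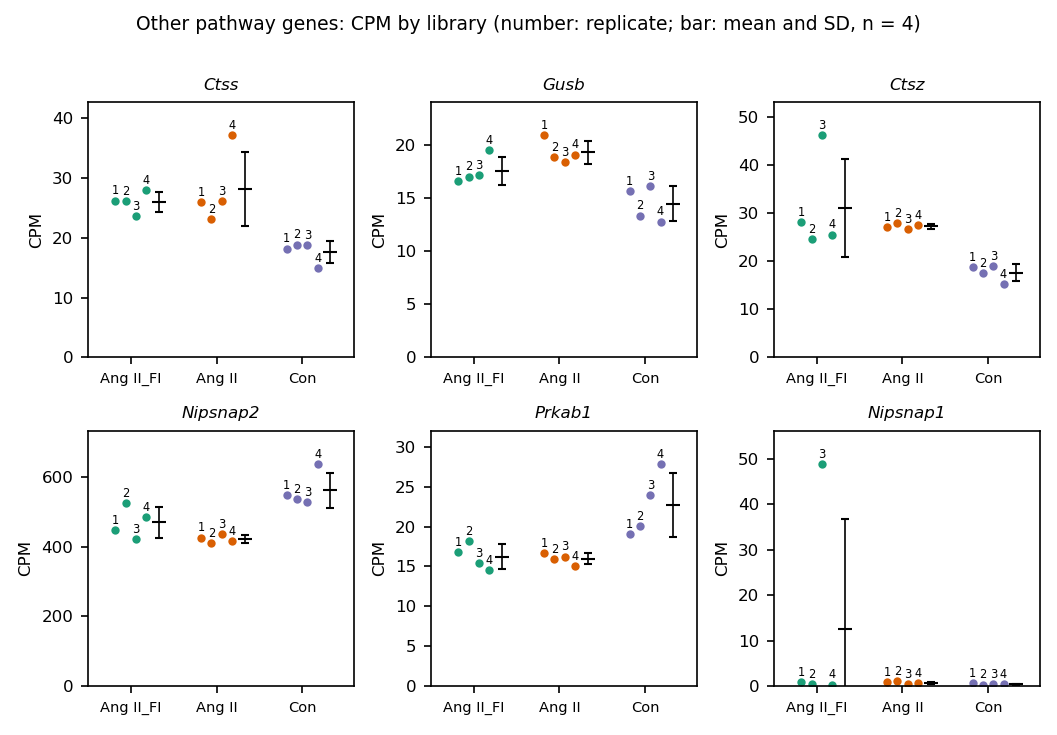
CPM of 6 other genes of the pathway in each library, with the replicate number beside its point and the mean and SD of 4 libraries as a bar, for Ang II_FI, Ang II and Con from left to right. Ctss and Gusb lie higher and Nipsnap2 and Prkab1 lower in Ang II than in Con without overlap. The highest values of Nipsnap1 and Ctsz in Ang II_FI are those of library 3. The other Ang II_FI libraries and all Ang II libraries of Ctsz also lie above the Con libraries.

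The remaining lists held 17 other initiation and ATG genes, 18 fusion genes, of which 17 passed the filter and Vamp7 did not, 19 lysosomal membrane proteins and 17 subunits of the vacuolar ATPase, the proton pump that acidifies the lysosome. None of their members passed in any comparison with all libraries in the fit (edgeR adjusted p under 0.05). Without Ang II_FI 3, Cd63, a membrane protein of late endosomes and lysosomes, rose in Ang II_FI against Con (log2 fold change 0.49, edgeR adjusted p = 0.0201) and in Ang II against Con (0.38, edgeR adjusted p = 0.026). Laptm4b, another lysosomal membrane protein, fell in that fit in Ang II against Con (-0.35, edgeR adjusted p = 0.0333). In Ang II against Con the unadjusted p was under 0.05 for 3, 4, 3 and 5 of them in that order, where 16.8% of all genes had such a p, and the genes with the smallest p were Atg4c (log2 fold change -0.45) and Trim16 (0.50), Stx17 (-0.24) and Rilp (-0.30), Laptm4b (-0.35) and Cd63 (0.38), and Atp6v1h (0.28) and Atp6v0c (0.45).

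None of the 7 lists, in Ang II_FI against Ang II, had a called member, as none of all genes did. With the smallest p in their lists, the lysosomal acid phosphatase Acp2 had a log2 fold change of 0.34, cathepsin A (Ctsa) 0.24, the lysosomal chloride transporter Clcn7 0.29, the lipid transporter Abca2 0.28, and the pump subunits Atp6v0b and Atp6v1e1 0.22 and 0.17. The membrane fusion proteins Vamp8 and Stx17 had 0.27 and 0.18, Wdr45 and Atg101 of the initiation machinery 0.26 and 0.23, the mitophagy receptor Fkbp8 0.24 and the kinase Mtor 0.23, while the mTORC1 inhibitor Ddit4 had -0.82 (edgeR adjusted p = 0.432). The adjusted p-values of these genes lay above 0.4. Those whose value moved by more than 1.5 times when Ang II_FI 3 was left out were Clcn7, Atg101 and Mtor, to 0.20, 0.15 and 0.14.

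In Ang II_FI against Con the genes named by the same rule were Prkab1 (log2 fold change -0.49) and Prkab2 (-0.22), Atg101 (0.54) and Atg4c (-0.52), Nipsnap2 (-0.26), Vamp8 (0.36) and Plekhm1 (0.30), Cd63 (0.42) and Slc38a9 (-0.37), and Atp6v0b (0.26) and Atp6v1h (0.25), none past the adjusted threshold with all libraries. Of these, Cd63 passed without Ang II_FI 3, as given above, and the others moved by less than 1.5 times. Nipsnap1, a relative of Nipsnap2, had 48.9 CPM in Ang II_FI 3 against 0.3002 to 0.92 CPM in the other Ang II_FI libraries. Its log2 fold change of 4.93 ± 1.44 (SE) for Ang II_FI against Con, and of 4.10 ± 1.37 for Ang II_FI against Ang II, was not past the threshold (edgeR adjusted p = 0.114 and 0.411). Without Ang II_FI 3 its log2 fold change was 0.46 against Con and -0.36 against Ang II.

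Markers of other cell types also differed between the groups compared. Fibroblast markers summed to 2126 to 2488 CPM in Ang II_FI, 2563 to 2657 CPM in Ang II and 1872 to 2368 CPM in Con, and endothelial markers to 608 to 811, 814 to 1034 and 569 to 891 CPM in the same order of groups. Ang II_FI 3 was the lowest Ang II_FI library for both, and the others held 2423 to 2488 and 677 to 811 CPM. The median log2 fold change of the fibroblast markers for Ang II_FI against Ang II was -0.26, and -0.19 without Ang II_FI 3. For the endothelial markers it was -0.36, and -0.30 without that library. With all libraries, the log2 difference of the sums for Ang II_FI against Ang II was -0.15 for fibroblast and -0.40 for endothelial markers. For Ang II against Con it was 0.32 for fibroblast markers (exact two-sided permutation p = 0.0286 for each of these differences, 0.114 after Benjamini-Hochberg adjustment). The sum of the skeletal muscle list, which includes genes of heart muscle, differed by 0.39 for Ang II_FI against Con with the same p. Cardiomyocyte markers summed to 42439 to 53590 CPM in Ang II_FI, 39239 to 45134 CPM in Ang II and 41233 to 56884 CPM in Con. Their log2 difference was 0.18 for Ang II_FI against Ang II and -0.19 for Ang II against Con, and the groups overlapped (exact two-sided permutation p = 0.171 and 0.114, or 0.411 and 0.392 after adjustment). The median log2 fold change of the 12 cardiomyocyte markers was 0.14 for Ang II_FI against Ang II with all libraries and 0.21 without Ang II_FI 3. The part of these cell types in the levels of the 35 genes was not tested.

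Several of the 35 genes share exon sequence with another gene on the opposite strand in GENCODE M21, among them Becn1 with Cntd1, Sqstm1 with Mrnip, Gabarapl1 with 1700101I11Rik, Lamp1 with Grtp1, Rb1cc1 with 4732440D04Rik and Atg2b with Gskip, and the strand setting of the counting is not given in the sources used here. Near-identical copies elsewhere in the genome held counts for Map1lc3b, Bnip3, Bnip3l and Gabarapl2, the largest after Gm6055 being Bnip3l-ps with 252 to 469 counts. Values of these genes are uncertain to that extent.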

How the data were processed

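Ventricular RNA from wild-type mice was sequenced as 12 libraries, grouped by the treatment label. Raw counts per gene were deposited by the authors in 1 table; HISAT, featureCounts 1.5.0-p3 and DESeq 1.8.3 with build GRCm38 are listed per the submitters' processing notes. Per the labels' protocols, one field names TRIzol and another an RNeasy kit for the extraction, and libraries were made with a SMARTER mRNA kit. Not given in the sources used here are the strand setting, how multi-mapping reads were counted and which annotation release was used; unstranded counting would mix overlapping genes.

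Of 55421 genes, 27438 had no count. Counts were filtered with filterByExpr, scaled by TMM and tested with edgeR 4.0.16 (R 4.3.3, glmQLFit and glmQLFTest) in 1 fit of 12 libraries with 3 group means; Benjamini-Hochberg adjustment ran over 17376 genes. CPM are counts scaled to the library total times its TMM factor. A count of 3 equals 0.0372 to 0.0436 CPM, a floor that covers counting error only. The labels do not say that replicates are separate animals, so p-values measure the spread between libraries, which may be technical. Exon lengths and coordinates are from GENCODE M21 (GRCm38). Marker sums were compared by exact two-sided permutation tests in Python 3.11. The procedure was tested on simulated counts.

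The 35 genes, their roles, the other lists and the rule for the genes named were chosen with earlier results of these data known. The rule gives library values for genes with p under 0.05 and for 8 fixed genes (Becn1, Map1lc3b, Sqstm1, Bnip3, Pink1, Tfeb, Lamp1 and Lamp2), the most abundant gene of each role, and up to 4 called genes, or else the 2 with the smallest p, of each other list; Atg9a, Nbr1 and Atg2b were added after their values were seen. Alternatives were DESeq2 1.42.0, limma-voom 3.58.1, other scalings and filters, only the groups compared, no mitochondrial genes, a replicate block, and each library left out. A further 2 were added after seeing the data: leaving out both libraries numbered 3 of Ang II_FI and Ang II, and a replicate block with only the groups compared. Whether replicate numbers pair libraries was checked from their deviations from the group means and depended on the scale for 1 comparison, as given with the alternatives.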

Additional observations from a re-analysis of the deposited data

Results flagged for a closer look

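In 5 of 192 groups of 4 libraries checked (35 genes and the other pathway genes named, in 3 groups each), 1 library lay far from the other 3, its gap to the nearest exceeding Dixon's critical value for 4 values; chance gives about 1 in 20 groups. Of the 105 groups of the 35 genes, 2 did so. Ulk2 had 60.33 CPM in Con 1, against 65.28 to 66.29 CPM in the other Con libraries, and Atg10 had 17.36 CPM in Ang II 3, against 15.54 to 15.77 CPM. In Ang II_FI 3, Ctsz had 46.24 CPM, against 24.59 to 28.2 CPM in the other Ang II_FI libraries, and Nipsnap1 had 48.87 CPM, against 0.3002 to 0.92 CPM. The same library held 25804 CPM on hepatocyte markers, and their part in both values was not tested. Rilp, a Rab7 effector at the lysosome, had 34.75 CPM in Con 4, against 26.45 to 26.84 CPM in the other Con libraries.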

How the results depend on the processing

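None of the 35 genes was called by any edgeR or limma-voom setting in any comparison; DESeq2 called 3 higher in Ang II_FI against Con. Counts over all genes moved more. In Ang II against Con (273 higher, 115 lower), DESeq2 gave 666 and 433, no filter 152 and 38, and a replicate block 105 and 19. Lower calls there were 58 with library totals, 185 with a stricter filter, 208 with only the 2 groups and 66 without both libraries numbered 3. In Ang II_FI against Ang II (0 and 0), DESeq2 gave 12 and 30, and leaving out both libraries numbered 3 gave 0 and 2. In Ang II_FI against Con (125 and 45), DESeq2 gave 486 and 361, no filter 50 and 14, a replicate block 51 and 10, only the 2 groups 35 and 13, and the 2 groups with a replicate block 2 and 0; upper-quartile scaling gave 73 higher and a stricter filter 82 lower. Leaving out 1 library gave 79 to 441 higher and 11 to 242 lower in Ang II against Con, 0 to 1 and 0 to 1 in Ang II_FI against Ang II, and 35 to 165 and 5 to 60 in Ang II_FI against Con. The causes were not tested.

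Of 1868 recomputed values for named genes, 1750 kept direction and call, 72 lost and 22 gained a call, and 24 changed sign. Without both libraries numbered 3, Lamp1 in Ang II against Con was -0.0041, and Becn1 and Nipsnap1 in Ang II_FI against Ang II were 0.0041 and -0.5266. In Ang II_FI against Con, Pink1 was then 0.0281 and Tfeb 0.0111; Tfeb was 0.008 by limma-voom, 0.0094 with a replicate block and 0.0043 with the 2 groups and a block. With 1 library left out, Lamp1 and Tfeb in Ang II against Con ranged from -0.0032 to 0.0778 and -0.0491 to 0.1415, Lamp2 and Nipsnap1 in Ang II_FI against Ang II from -0.0317 to 0.1811 and -0.3639 to 4.504, and Map1lc3b, Pink1 and Tfeb in Ang II_FI against Con from -0.0946 to 0.2622, -0.0538 to 0.0549 and -0.099 to 0.0919.

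Whether replicate numbers pair Ang II_FI with Ang II libraries depended on the scale: deviations of libraries 1 to 4 correlated at 0.118, 0.114, 0.456 and 0.161 on CPM of library totals, all above 0.1, and at 0.099, 0.111, 0.442 and 0.169 on TMM-scaled CPM. The plain scale was computed first, the change of scale and the choice of an unblocked result came after the block's counts were known, and the labels give no shared litter or day. With the block, 0 genes were called in Ang II_FI against Ang II, and 7 of 35 genes had an unadjusted p under 0.05, against 7.65% of all genes; with only these 2 groups, 5 of 35 did, against 6.41%. The other comparisons held correlations under 0.1. Of 24 closest matches, each picked from 4 libraries, 9 shared a number. The largest correlation was that of Ang II_FI 3 and Ang II 3, the libraries with the most hepatocyte marker CPM (25804 and 63.2). The part of these markers' tissue in the correlation was not tested.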

Other observations

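Map1lc3b, whose levels lay at 87.4 to 120 or at 172 to 202 CPM in each group, had counts that varied with those of several genes, a pattern chosen after the values were seen from 13430 genes. Evi2, Rpl15-ps3 and Polr2g varied most closely in the same direction and A030001D20Rik, Trps1 and Evi2b in the opposite one, with correlations of like size over the 12 libraries. Evi2 and Evi2b are given as examples, and whether their counts depend on each other was not tested. Evi2 had 151, 14, 15 and 193 counts in Ang II_FI 1 to 4, 15, 45, 49 and 265 in Ang II 1 to 4, and 59, 1, 3 and 91 in Con 1 to 4. Evi2b had 24, 210, 230 and 24 counts in Ang II_FI, 225, 98, 146 and 0 in Ang II, and 52, 204, 222 and 36 in Con. Map1lc3b had 11844, 7578, 9076 and 14094 counts in Ang II_FI, 7066, 6211, 7133 and 15364 in Ang II, and 11541, 7381, 7645 and 14528 in Con. In each group the libraries with the most Map1lc3b counts had the most Evi2 and the fewest Evi2b counts.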
